A study of Homo sapiens with 6 samples.

Results

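Ribosomal protein pseudogenes are genomic copies of the genes for the proteins of the ribosome, and 181 of them were described here in MDA-MB231 cells with and without knockdown of the receptor Ror1. The deposited table listed 57445 genes as TPM, a unit of transcript abundance in which the reads of a gene are divided by its length and every library is scaled to the same sum. Its identifiers were matched to gene symbols, and a symbol beginning with RPL or RPS and ending in P and a number marked 1590 pseudogene rows. The members were chosen by their measured level: at least 1 TPM in at least 3 of the 6 libraries, which 181 of the 1590 reached. That level is therefore a description and carries no test below. The same letters also caught RPS19BP1, a protein-coding gene for a binding partner of a ribosomal protein, at 76.0 to 94.2 TPM, and it was set aside.

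MDA-MB231 is an established human breast cancer line of the triple-negative, mesenchymal kind. Control cells (shCTL, 3 libraries) and Ror1 knockdown cells (shRor1, 3 libraries) both carried a lentiviral pGIPZ shRNA vector, delivered at a multiplicity of infection of 5.0, and both were kept under 2 µg/ml puromycin, so that the groups shared infection and selection. The labels call the control an empty vector, while the study describes a non-silencing shRNA. The header above the control columns reads GIPZnsctlDMSO, and its DMSO is explained by neither. Selected pools of 1 line stood for each condition, and no label stated that the 3 libraries of a group came from separate cultures, so p-values measure only the spread between these libraries, which may be technical. The columns carried no replicate number, and libraries are numbered 1 to 3 in the order of the table.

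Ribosomal protein mRNAs are among the most abundant of any dividing cell. Reverse transcription of such spliced mRNAs by retrotransposon enzymes, followed by insertion elsewhere in the genome, left processed pseudogenes, copies without introns that decay by mutation because nothing holds their frame. A young copy is still almost letter for letter the coding sequence of its parent, and a short read from the parent mRNA can then match the copy equally well. RSEM, the program that made the deposited values, divides such reads between the genes they match according to its model, and the TPM of a young copy is a share of those reads rather than a direct count of its own transcripts.

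ROR1, the knockdown target, was listed at 15.4, 13.5 and 20.6 TPM in the control and at 9.34, 11.9 and 14.8 TPM in the knockdown libraries. The groups overlapped, and the difference (log2 fold change -0.43 ± 0.20 SE, adjusted p = 0.984) did not pass the test. The study reported the stable knockdown from a Western blot of Ror1 protein, which these RNA values do not address. Of the markers fixed for the line, VIM (2399 to 2920 TPM), LGALS1 (1248 to 1650), CD44 (359 to 534) and CAV1 (374 to 513) were high, and ESR1 and PGR were at 0.21 TPM or less. CDH1 and EPCAM had also been fixed as at or near 0, and ERBB2 as low. CDH1 lay between 0.80 and 1.47 TPM, but EPCAM lay between 12.6 and 15.8 TPM, against that expectation. ERBB2 lay between 26.6 and 34.9 TPM. Of the markers fixed for other cell types, PTPRC reached 0.39 TPM and COL1A1 13.9, and PECAM1 is not reported here. TPM keeps no depth, and the library sizes that the study states were not used here, since the table holds no counts.

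The sequences below show why these rows need care, since they run from exact copies of a coding sequence to copies with many differences from the parent. Each copy was read from the GRCh37 genome at the stated position, 5′ to 3′ on the strand of the gene. Capitals mark bases that differ from the coding sequence of the parent, which was taken from its annotated spliced transcript. Where part of a copy is shown, the stretch was chosen for the most differences in the copy named first. The first set holds exact copies, which have no capitals: RPL39P3 (chr6:74082831-74082986, minus strand) repeated all 156 bases of the RPL39 coding sequence, RPL41P1 (chr20:21735908-21735985, plus strand) all 78 bases of RPL41, and RPS28P7 (chr11:82400601-82400810, plus strand) all 210 bases of RPS28.
RPL39P3: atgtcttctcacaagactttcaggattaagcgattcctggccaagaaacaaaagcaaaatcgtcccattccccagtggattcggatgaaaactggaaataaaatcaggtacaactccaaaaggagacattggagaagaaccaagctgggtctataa
RPL41P1: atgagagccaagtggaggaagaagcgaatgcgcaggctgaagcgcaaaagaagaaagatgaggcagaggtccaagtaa
RPS28P7: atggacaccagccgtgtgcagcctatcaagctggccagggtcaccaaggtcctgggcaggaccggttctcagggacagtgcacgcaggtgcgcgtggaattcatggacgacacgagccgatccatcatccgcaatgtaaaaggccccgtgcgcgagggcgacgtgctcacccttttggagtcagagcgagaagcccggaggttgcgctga

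The second set holds copies with a few differences from the parent in the stretch shown. RPL21P16, which differs from its parent at no base, is printed here for comparison with RPL21P75. RPL21P75 (chr7:20042724-20042843, plus strand) differed from RPL21 at 1 base in the 120 shown, which are bases 337 to 456 of the 483-base coding sequence. RPL21P16 (chr10:122114240-122114359, minus strand) had the RPL21 letters throughout.
RPL21P75: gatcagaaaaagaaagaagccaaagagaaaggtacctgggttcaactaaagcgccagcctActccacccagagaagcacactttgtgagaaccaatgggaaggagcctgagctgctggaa
RPL21 and RPL21P16: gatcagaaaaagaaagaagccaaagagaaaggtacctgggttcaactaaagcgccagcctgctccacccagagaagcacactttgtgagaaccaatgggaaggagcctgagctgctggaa
RPS7P11 (chr17:44799056-44799205, minus strand) is shown over bases 328 to 477 of the RPS7 coding sequence, where it had 4 of its differences.
RPS7P11: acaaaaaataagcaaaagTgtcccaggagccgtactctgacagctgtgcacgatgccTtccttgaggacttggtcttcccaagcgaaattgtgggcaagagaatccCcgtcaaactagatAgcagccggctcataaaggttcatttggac
RPS7: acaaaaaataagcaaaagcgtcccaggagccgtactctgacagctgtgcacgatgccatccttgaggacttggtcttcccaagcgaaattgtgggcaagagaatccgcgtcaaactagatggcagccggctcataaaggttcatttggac
RPS2P46 (chr17:19350009-19350158, minus strand) and RPS2P5 (chr12:118683896-118684045, plus strand) are copies of the same parent and are set side by side over bases 8 to 157 of RPS2, where they had 4 and 2 differences. The stretch was chosen by RPS2P46, and over the whole alignment to RPS2 each copy had 11 mismatches.
RPS2P46: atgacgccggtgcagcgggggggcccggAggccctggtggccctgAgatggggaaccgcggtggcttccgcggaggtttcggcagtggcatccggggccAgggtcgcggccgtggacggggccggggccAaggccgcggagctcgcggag
RPS2P5: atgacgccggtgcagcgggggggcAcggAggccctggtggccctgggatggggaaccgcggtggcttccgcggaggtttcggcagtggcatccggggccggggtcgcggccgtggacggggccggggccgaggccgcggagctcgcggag
RPS2: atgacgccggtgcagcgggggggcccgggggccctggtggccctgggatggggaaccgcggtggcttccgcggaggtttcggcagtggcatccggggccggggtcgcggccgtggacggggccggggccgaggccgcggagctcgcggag

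The third set holds an older copy. RPS27P13 (chr4:22595943-22596062, plus strand) had 7 differences over bases 125 to 244 of RPS27. Over its whole length only 24.8% of its 50-base words also occur in the parent.
RPS27P13: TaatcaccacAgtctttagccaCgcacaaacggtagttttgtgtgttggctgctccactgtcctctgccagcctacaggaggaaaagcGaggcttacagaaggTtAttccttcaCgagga
RPS27: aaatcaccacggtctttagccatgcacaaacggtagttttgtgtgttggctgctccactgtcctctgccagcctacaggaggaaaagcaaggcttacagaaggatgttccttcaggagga

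The 181 members had 54 parent genes, with 117 members from the large subunit (RPL) and 64 from the small subunit (RPS). RPL21 had the most members above the level, 10 of the 133 pseudogene rows carrying its name, followed by RPL13A, RPL23A, RPS3A and RPS27 with 8 each and RPSA with 7. The annotation called 158 members processed pseudogenes, 19 transcribed processed pseudogenes, 2 transcribed unprocessed pseudogenes (RPL23AP82 and RPL32P3) and 2 only pseudogenes (RPL9P8 and RPL9P9), so that the label of processed copies held for 177 of them by annotation. They lay on 23 chromosomes. Of all members, 73 lay between annotated genes, 60 overlapped a gene only on the opposite strand, 37 lay in an intron of another gene on the same strand and 11 overlapped an exon of another gene on the same strand. Median mean levels in these settings were 1.83, 1.68, 1.49 and 5.92 TPM.

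Members kept much of the parent sequence. Alignment to the main transcript of the parent gave a median identity of 96.1%, from 71.5% for RPL13P8 to 100% for 5 members, and 27 members were at least 99% identical. An open frame from an ATG at least as long as that of the parent remained in 50 members, and in 79 the longest frame was under 50% of it. Each member was also cut into all its 50-base words, the read length of the study. The median member shared 16.4% of these words with the transcripts of its parent and 29.6% with those of any annotated gene other than itself, the parent included. No shared word with the parent was found for 33 members, and 13 members had no 50-base word of their own.

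Most members were low and a few were among the highest rows of the table. The median member had 1.79 TPM, against 13.0 TPM over the 16554 genes that passed the same level rule, and 141 members lay under 5 TPM while 12 reached 100 TPM. In 151 members the level was under 1% of that of the parent, and the median was 0.113%. The members just inside the rule were RPL13AP8, RPL7AP70 and RPL17P50, in which the value that decided (the third highest of 6) lay between 1 and 1.02 TPM, and those just outside were RPL3P2 at 0.99, RPS27P3 at 0.98 and RPL31P4 at 0.97 TPM. Of the 181 members 109 reached 1 TPM in all 6 libraries and 19 in exactly 3, and 0 reached it in the 3 libraries of a single group alone. Among the remaining rows of the name rule, 396 were at 0 in every library.

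**Figure D1:**
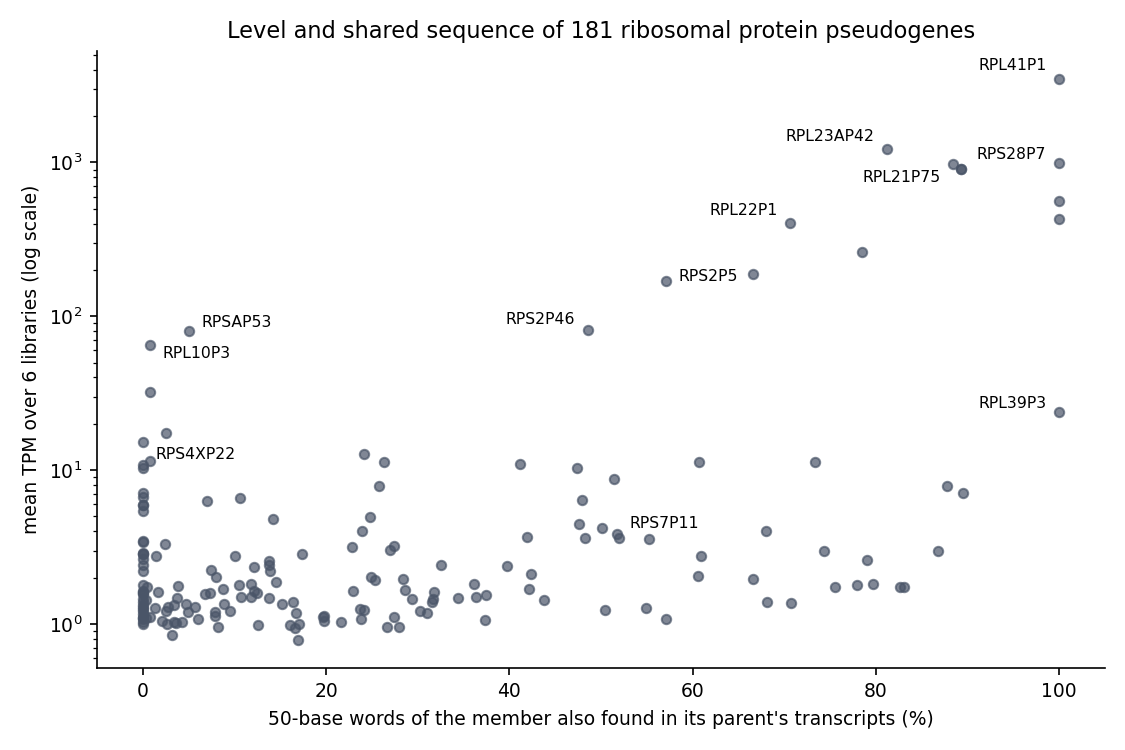
Mean TPM over the 6 libraries (log scale) of each of the 181 members against the percent of its 50-base words that also occur in transcripts of its parent. Members with over 75% shared words reach from 1.75 to 3499 TPM, and RPSAP53 and RPL10P3 stand at 80.1 and 65.0 TPM with 5.04% and 0.716% of their words shared.

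The 12 members of at least 100 TPM each shared 57.1% or more of their words with the parent. In the 5 members with all words shared the median level was 559 TPM, and 4 of them were above 100 TPM. Between 75% and 100% the median of 14 members was 5.01 TPM, and 5 were above 100 TPM. The median was 2.12 TPM for 53 members between 25% and 75%, 1.47 TPM for 76 members up to 25%, and 1.79 TPM for the 33 members that shared no word. Over the 181 members Spearman's rho of level and shared words was 0.31, given as a description, since the points come from the same libraries and the members of a family share reads. A full-length frame remained in 5 of 5, 11 of 14, 21 of 53, 12 of 76 and 1 of 33 members of these classes.

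Some members with little shared sequence were nevertheless well above the level, and they are named here after their values were seen. RPSAP53, a copy of the laminin receptor and small subunit gene RPSA, had 698 words of its own and was listed at 87.4, 82.5 and 79.9 TPM in the control and at 85.5, 70.7 and 74.7 TPM in the knockdown libraries. RPL10P3, a copy of the RPL10 gene that overlaps the annotated small nucleolar RNA gene SNORA70C on the same strand, stood at 70.3, 66.8 and 65.0 against 67.6, 65.2 and 54.8 TPM, while SNORA70C itself was listed at 0 in every library. RPS4XP22 shared no word with RPS4X and had 16.6, 14.6 and 14.3 against 14.3, 15.4 and 15.9 TPM, and RPL5P8 likewise shared none and had 12.2, 11.1 and 9.57 against 9.82, 11.1 and 11.2 TPM. In these 4 members the groups overlapped and the libraries differed little. Over the aligned part they were still 92.71% (RPSAP53), 96.83% (RPL10P3), 90.15% (RPS4XP22) and 83.61% (RPL5P8) identical to the parent. Of the 11 members on an exon of another gene, 4 had all their words in that gene. RPL32P24 and RPL9P25 were at mean levels of 7.09 and 4.79 TPM beside 6.71 and 53.6 TPM for ANKRD42 and TIPIN, RPL32P29 at 1.59 TPM beside 2926 TPM for RPS29, and RPL23AP82 at 32.0 TPM on a gene annotated as RPL23AP7.

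**Figure D2:**
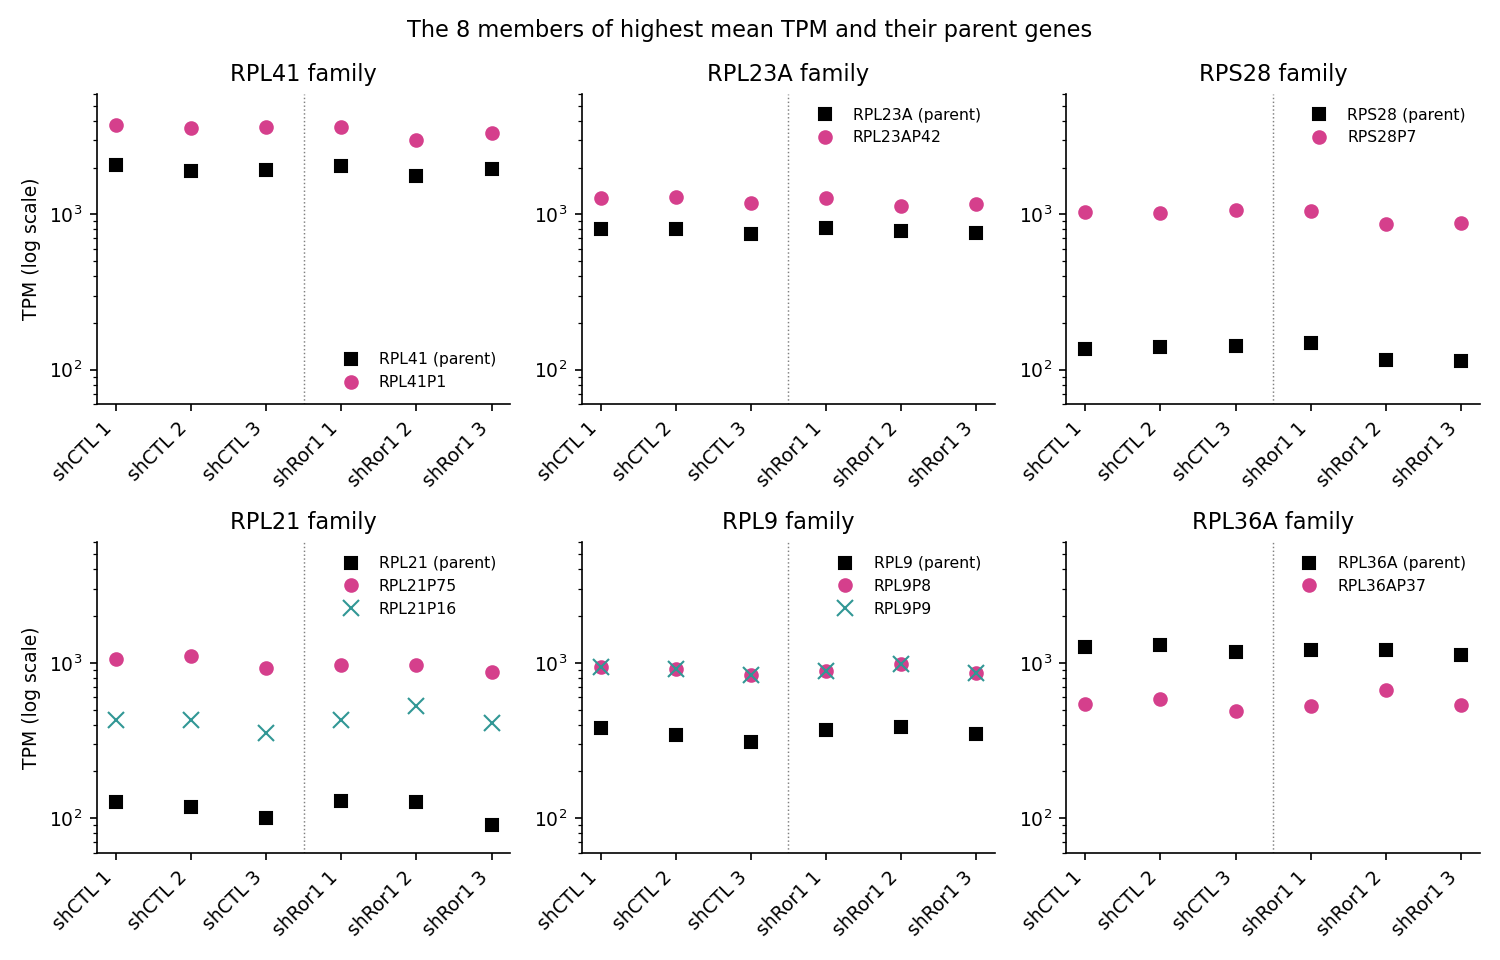
TPM in each library (log scale) of the 8 members of highest mean TPM (circles and crosses) and of their parent genes (black squares), with the shCTL libraries left and the shRor1 libraries right of the dotted line. In 5 of the 6 families the members shown lie above the parent in every library, and RPL9P8 and RPL9P9 coincide.

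The 8 members of highest mean level held 83.7% to 84.6% of the summed TPM of all 181 members. RPL41 encodes the smallest protein of the large subunit, and its copy RPL41P1 was listed at 3745, 3581 and 3656 TPM in the control and at 3633, 3030 and 3347 TPM in the knockdown libraries. The parent RPL41 had 2082, 1901 and 1938 against 2036, 1774 and 1950 TPM, so the copy stood above the parent in every library. RPL41P1 is annotated as only 81 bases long and has 32 different words of 50 bases, and all of them also occur in RPL41. TPM divides reads by length, so a short copy above its longer parent does not mean that it had more reads.

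RPL23AP42, a copy of the large subunit gene RPL23A, had 1269, 1300 and 1184 TPM in shCTL and 1270, 1131 and 1162 TPM in shRor1. RPL23A had 809, 802 and 746 against 811, 782 and 755 TPM. The copy differed from the parent at 2 bases and had 50 words of its own, of 422. RPS28P7, a copy of the small subunit gene RPS28, had 1029, 1022 and 1063 against 1051, 862 and 885 TPM. RPS28 itself had only 136, 141 and 142 against 150, 116 and 114 TPM, and the copy thus held 741% of its level.

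Members of the RPL21 family held 91.7% to 93.4% of the family's TPM in each library. RPL21P75 had 1053, 1111 and 930 TPM in shCTL and 974, 971 and 868 TPM in shRor1, and its 1 differing base gave it 50 words of its own, of 434. RPL21P16 had no differing base and no word of its own, and was listed at 429, 431 and 355 against 429, 526 and 409 TPM. The parent RPL21 lay under both, at 127, 117 and 100 against 128, 127 and 90.8 TPM.

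RPL9P8 and RPL9P9 had the same 673-base sequence and were listed with the same value in every library: 939, 919 and 833 TPM in shCTL and 892, 979 and 861 TPM in shRor1. These rows therefore hold a single measurement. The parent RPL9, a large subunit gene, had 383, 344 and 309 against 368, 384 and 348 TPM. RPL36AP37, an exact copy of RPL36A within an intron of PLEKHA7, had 540, 584 and 487 against 529, 672 and 539 TPM, and RPL36A had 1260, 1294 and 1179 against 1217, 1209 and 1122 TPM. RPL36AP37 was the only one of the 8 that lay below its parent. In all 8 members the shCTL and shRor1 values overlapped, with log2 fold changes from -0.16 ± 0.09 (RPS28P7) to 0.16 ± 0.12 (RPL21P16) and adjusted p of 0.984 to 0.987.

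In the comparison of shRor1 with shCTL, limma was fitted to log2(TPM + 1) of all 16554 genes, a scale on which the change of low genes is understated. No member passed an adjusted p below 0.05, and neither did any other gene (0 of 16554, 0.0%). At an unadjusted p below 0.05, 8 of 181 members (4.42%) were lower in shRor1, against 90 of all genes tested (0.544%), and 5 members (2.76%) were higher, against 382 (2.31%). The shRor1 values lay wholly below the shCTL values in 9 members (4.97%; all genes 1.3%) and wholly above in 11 (6.08%; all genes 6.48%). An absolute log2 fold change above 1 was found in 2 members, RPL39P3 and RPS7P11 (1.1%; all genes 0.429%). With a library left out this count was 2 to 6 (6 without the first library of shCTL), and a pseudocount of 0.1 gave 10. The matching shares over all genes are not given for these settings. RPL39P3 and RPS7P11 were known from earlier results of these data when the members were chosen, and their inclusion in these counts is not independent.

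The median member log2 fold change was -0.02, with 85 members fitted higher and 96 lower, against 0.05 over all genes, of which 67.0% were fitted higher. Quantile normalization gave 65 higher and 116 lower and median ratio scaling 70 and 111, with the median of all genes at 0.00 and -0.02. The split turned to 99 higher and 82 lower with shCTL library 1 left out, and to 100 and 81 with shRor1 library 1 left out. The size of the change was small: the median absolute log2 fold change was 0.14 in the members and 0.09 in all genes. Libraries of a group also differed more in the members, with a median within-group SD of 0.22 on the log2 scale against 0.15. Between 1 and 5 TPM these SDs were 0.23 (132 members) and 0.20 (5180 genes), from 5 to 50 TPM 0.21 (25) and 0.14 (7685), and above 50 TPM 0.11 (15) and 0.11 (3459).

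**Figure D3:**
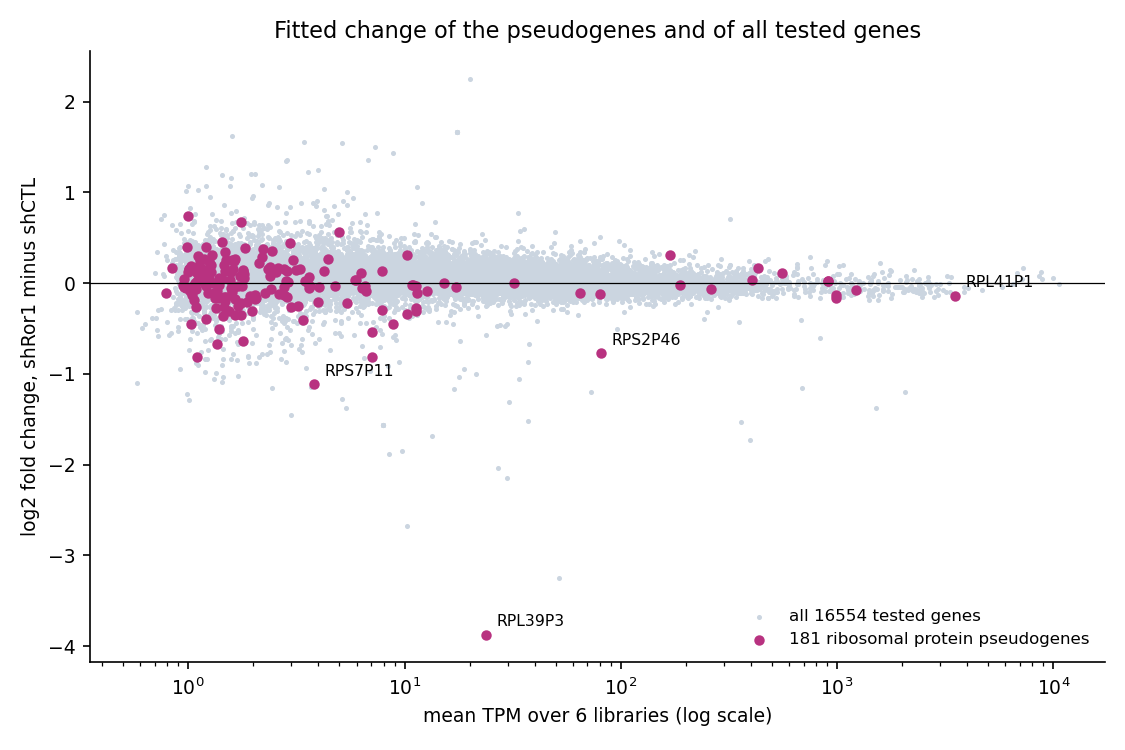
Log2 fold change (shRor1 minus shCTL, from log2(TPM + 1)) against mean TPM over the 6 libraries (log scale), for all 16554 tested genes in grey and the 181 members in magenta. RPL39P3 at -3.87 and RPS7P11 at -1.11 are the members past an absolute value of 1.

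RPS7P11, a copy of the small subunit gene RPS7 that lies opposite NSF, was listed at 6.03, 5.74 and 5.05 TPM in the control and at 1.88, 2.01 and 2.28 TPM in the knockdown libraries. Every shRor1 library was below every shCTL library. The log2 fold change was -1.11 ± 0.12 (SE), with an unadjusted p of 2.8e-05 and an adjusted p of 0.369. RPS7 changed by -0.06 on that scale, and the member minus its parent differed by -1.05 ± 0.12 between the groups (exact permutation p = 0.1, two-sided, the smallest that 3 against 3 libraries allow). The copy was 98.8% identical to RPS7, with 6 mismatches and 1 gap, and 259 of its 537 words were its own. NSF had 44.8 to 48.8 TPM in the 6 libraries, with no order between the groups.

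RPL39P3, the exact copy of the large subunit gene RPL39 printed above, lies in an intron of OOEP and was listed at 41.5, 38.4 and 41.7 TPM in the control and at 0, 0 and 21.7 TPM in the knockdown libraries. All 107 of its words also occur in RPL39. The log2 fold change was -3.87 ± 1.10, at an unadjusted p of 0.00844 and an adjusted p of 0.984. Without the third shRor1 library, the one that was not at 0, it was -5.38 with an adjusted p of 9.3e-06, the only adjusted call for a member under any setting tried. The shRor1 values left were then both 0, so that group showed no spread and this p-value cannot measure it. RPL39 had 2029, 2147 and 1915 against 2044, 2370 and 2047 TPM (log2 fold change 0.08 ± 0.09), and the difference of RPL39P3 from its parent was -3.96 ± 1.54 (exact permutation p = 0.1). Summed over RPL39 and all its pseudogene rows, the family differed by 0.06 ± 0.09. The mean level of RPL39P3 was 1.14% of that of RPL39, so this sum is almost the parent value and cannot show a change of the copy. OOEP, whose intron holds the copy, was at 0.15 TPM or less.

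**Figure D4:**
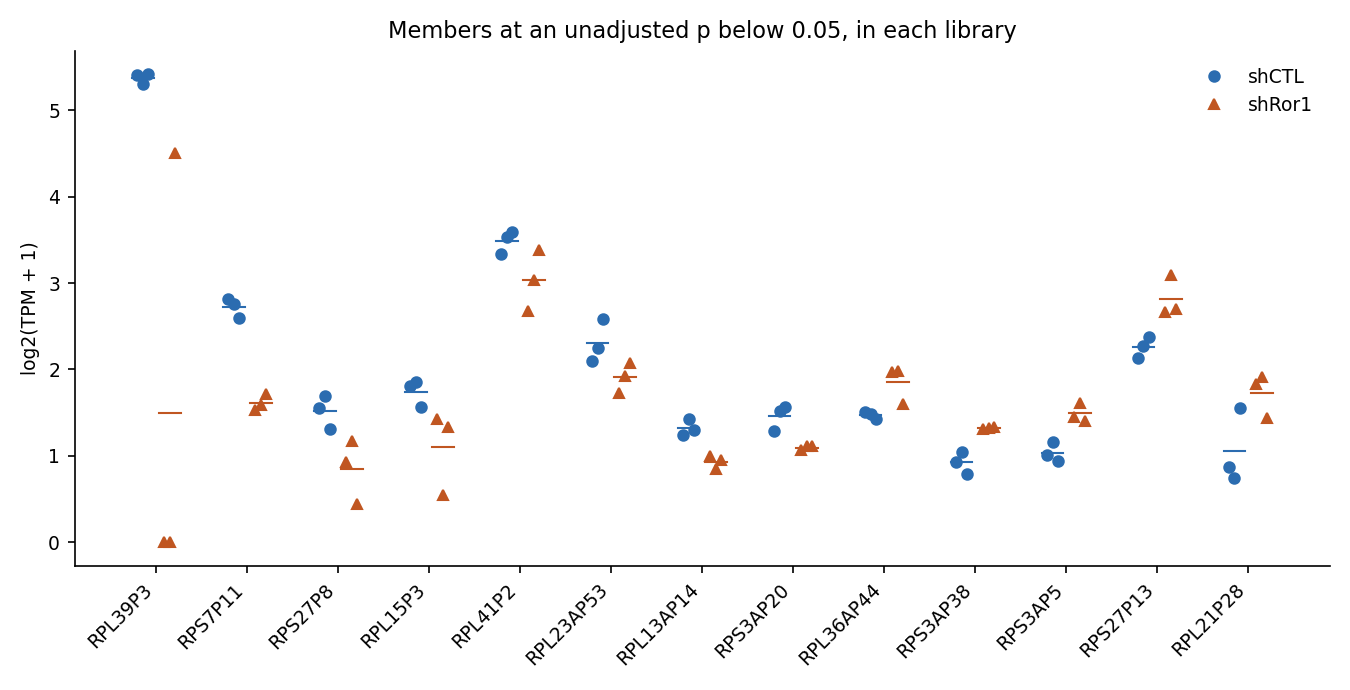
log2(TPM + 1) in each library of the 13 members at an unadjusted p below 0.05, ordered by log2 fold change, with shCTL as circles, shRor1 as triangles and a bar at each group mean. The groups overlap in RPL41P2 and RPL21P28 and are apart in the other 11.

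The other 11 members at an unadjusted p below 0.05 each had an adjusted p of 0.984. Among copies of large subunit genes, RPL41P2 had 9.12, 10.61 and 11.03 TPM in shCTL and 5.39, 7.22 and 9.45 TPM in shRor1 (log2 fold change -0.45 ± 0.18). RPL23AP53, a transcribed copy with no word of RPL23A, had 3.28, 3.76 and 4.99 against 2.31, 2.80 and 3.20 TPM (-0.40 ± 0.17). RPL15P3, with 77.9% of its words in RPL15, had 2.51, 2.61 and 1.96 against 1.69, 0.46 and 1.52 TPM (-0.64 ± 0.24). RPL41P2 overlapped between the groups, while RPL23AP53 and RPL15P3 did not.

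RPL13AP14 shared 2.53% of its words with RPL13A and had 1.37, 1.69 and 1.47 against 1.00, 0.80 and 0.94 TPM (log2 fold change -0.39 ± 0.13). Higher in shRor1 were RPL36AP44, with 1.85, 1.81 and 1.69 against 2.93, 2.96 and 2.03 TPM (0.38 ± 0.15), and RPL21P28, with 0.83, 0.67 and 1.93 against 2.57, 2.76 and 1.72 TPM (0.68 ± 0.24). RPL36AP44 has no word of RPL36A and lies opposite ANXA2. RPL21P28 shares 75.6% of its words with RPL21, and its groups overlapped.

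Copies of small subunit genes were fitted both lower and higher. RPS27 is a zinc finger protein of the small subunit, and its copies RPS27P8 and RPS27P13 were fitted with opposite signs, a difference that was not tested. RPS27P8 had 1.94, 2.23 and 1.49 TPM in shCTL and 0.91, 1.26 and 0.36 TPM in shRor1 (log2 fold change -0.67 ± 0.21), and RPS27P13 had 3.38, 3.83 and 4.18 against 5.33, 7.54 and 5.51 TPM (0.56 ± 0.15). RPS27P8 shared 70.7% and RPS27P13 24.8% of its words with RPS27. The parent RPS27 had 2589, 2585 and 2398 against 2505, 2419 and 2350 TPM.

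RPS3A takes part in the binding of initiation factors by the small subunit, and 3 of its 8 copies were among these members. RPS3AP20 had 1.45, 1.86 and 1.97 against 1.09, 1.16 and 1.17 TPM (log2 fold change -0.36 ± 0.13). RPS3AP5 had 1.01, 1.23 and 0.92 against 1.74, 2.06 and 1.65 TPM (0.46 ± 0.13), and RPS3AP38, which lies in an intron of HERC4 and shares no word with RPS3A, had 0.91, 1.07 and 0.73 against 1.49, 1.51 and 1.53 TPM (0.40 ± 0.13). These 3 copies lay on both sides, and none passed the adjusted test, beside a parent at 2126, 2169 and 1944 against 2058, 2347 and 2015 TPM. Of all 13 members, 3 shared no word with the parent, 2 shared up to 25%, 5 from 25% to 75%, 2 between 75% and 100%, and 1 all words.

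Each member was also set against its own parent in every library. The difference between the groups in this member minus parent value reached an exact permutation p of 0.1, the smallest possible, in 23 of 181 members (12.7%), of which 10 were lower and 13 higher relative to the parent in shRor1. By their own level, without a parent, 20 of the 181 members and 1288 of the 16554 genes tested (7.78%) reached that p. The member minus parent value exists only for members, so the 12.7% has no matching share over all genes. If the group labels of the libraries were exchangeable, the design alone would give a p of 0.1 at a rate of 0.1. The 12.7% lies near that rate, and whether it exceeds it was not tested. In 170 members the difference was under 0.5 on the log2 scale, and its median was 0.02. Leaving out a library moved the count of 23 to between 12, with shCTL library 2 absent, and 38, with shRor1 library 1 absent. RPL41P1 and RPL23AP42 were among the 23, at -0.10 ± 0.03 and -0.07 ± 0.04, while their own TPM values overlapped between the groups.

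**Figure D5:**
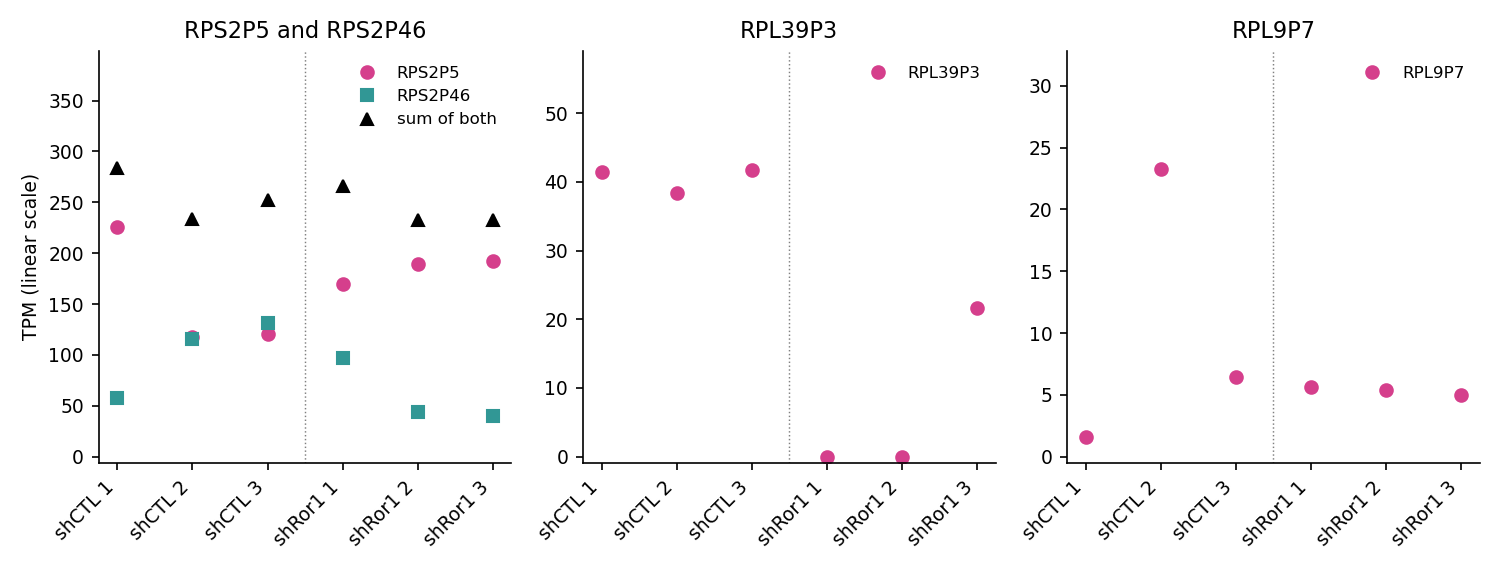
TPM in each library (linear scale) of RPS2P5, RPS2P46 and their sum, of RPL39P3, and of RPL9P7, with shCTL left and shRor1 right of the dotted line. RPS2P5 is high where RPS2P46 is low, and their sum runs from 232 to 283 TPM.

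In some members libraries of the same group stood far apart. RPL9P7, named after its values were seen, had 1.62, 23.2 and 6.44 against 5.66, 5.35 and 4.98 TPM, a wider range within shCTL than between the groups. A value of 0 in at least 1 library occurred in 5 members, RPL39P3 among them.

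RPS2P5 and RPS2P46, also named after their values were seen, mirrored each other. RPS2P5 had 226, 117 and 121 TPM in shCTL and 169, 189 and 192 TPM in shRor1, and RPS2P46 had 57.5, 116 and 132 against 97.1, 43.6 and 40.3 TPM. The highest library exceeded the lowest 1.92 times in RPS2P5 and 3.26 times in RPS2P46, but 1.22 times in their sum, which was 283, 233 and 252 against 266, 232 and 233 TPM. RPS2, a small subunit gene, had 2637, 2171 and 2241 against 2422, 2111 and 2184 TPM. RPS2P46 shared 48.6% of its words with RPS2 and 33.6% with RPS2P5. By shared words, the median within-group SD of log2(TPM + 1) was 0.24 for members with no word of the parent, 0.19 up to 25%, 0.27 from 25% to 75%, 0.36 between 75% and 100% and 0.16 with all words shared.

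Summed over all 181 members, the level was 11812, 11691 and 11094 TPM in shCTL and 11426, 10927 and 10614 TPM in shRor1, or 1.06% to 1.18% of each library. The means were 11532 ± 385 and 10989 ± 410 TPM (SD, n = 3 each), and the groups overlapped. The difference of -544 TPM lay in the 5 highest members, which include RPL9P8 but not RPL9P9, and became 29.7 TPM without them. The parents summed to 111136, 106884 and 101636 against 108802, 101818 and 97007 TPM. Of the 79 cytosolic ribosomal protein genes, all tested, 0 passed an adjusted or an unadjusted p below 0.05 in limma. Of these genes 71 were fitted lower and 8 higher in shRor1, from -0.19 to 0.09 with a median of -0.07, and shRor1 lay wholly below shCTL in 1 and wholly above in 0.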

How the data were processed

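The deposited table held TPM, although its name speaks of expected counts: values had 2 decimals and the 6 columns had the same sum within rounding. Per the methods and processing notes, the authors sequenced single 50-base reads from stranded libraries (the labels name polyA RNA, the kit is for total RNA), used CASAVA 1.8.2 and FastQC 0.10.0, mapped with STAR to GRCh37 with Ensembl 73, and estimated abundance with RSEM 1.2.5, which divides reads that match several genes. The deposited TPM were not filtered.

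Sequences, positions, frames and shared words came from GENCODE 44 on GRCh37, newer than the authors' annotation. For 154 members the gene is 1 exon of the transcript's length, and in all 154 genome and transcript were identical. Genes that reached 1 TPM in 3 or more libraries were tested on log2(TPM + 1) with limma 3.58.1 (R 4.3.3, mean-variance trend, Benjamini-Hochberg adjustment), a script tested on simulated data. Member minus parent differences were tested by two-sided exact permutation.

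Named genes were RPS7P11 and RPL39P3, members at an unadjusted p below 0.05 or an absolute log2 fold change above 1, the 8 of highest mean TPM, those at 0 in a library and at least 5 TPM in another, the 3 on either side of the level rule, and their parents; 1 member and its parent are not reported here. Members and lists were chosen with earlier results of these data known. Alternatives were another pseudocount, filter, scaling, no trend, family sums and leaving out each library.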

Additional observations from a re-analysis of the deposited data

How the results depend on the processing

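No paired analysis was possible because no replicate number stands in the header, and the fit with a replicate block was not run. Members with an adjusted p below 0.05 numbered 0 in the reported fit and 0 to 1 when a library was left out. The 1 was RPL39P3 without the third shRor1 library (-5.38, adjusted p = 9.3e-06), where the shRor1 values left were both 0. The 13 members at an unadjusted p below 0.05 became 67 of 1194 with no expression filter and 2 of 40 at a mean of at least 5 TPM, since more or fewer rows were then tested, and 9 to 17 when a library was left out. The 2 members past an absolute log2 fold change of 1 became 10 with a pseudocount of 0.1, 1 at a mean of at least 5 TPM and 2 to 6 when a library was left out. The shares over all genes at these thresholds are not given for these settings, so these counts describe the members alone. The median member log2 fold change of -0.02 ranged from -0.07 to 0.03 over all settings and was above 0 with no filter and without the first library of either group. The count of 23 differences from the parent ran from 12 to 38 when a library was left out. The difference in summed TPM of -544 became 29.7 without the 5 highest members, and the median share of words of 16.4% became 41.4% for 25-base words and 29.6% in any gene other than the member itself, the parent included. The 181 members became 109 at 1 TPM in all 6 libraries and 42 at 5 TPM in 3.

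Of the 21 members reported for an unadjusted p below 0.05 or a place among the 8 highest, 12 kept their direction under every setting run for them, family sums included, and of their 12 parents 7 did. Summed with their family, the direction turned for RPS3AP20 (0.041), RPL21P28 and RPL21P16 (-0.035), RPL39P3 (0.058), RPL36AP44 and RPL36AP37 (-0.014) and RPS27P13 (-0.056). These are values of the whole family, set mainly by its highest rows, so their sign cannot test the direction of a single member. For all of these members but RPL36AP37, the family sum was the only setting that turned the direction. With median ratio scaling it turned for RPL9P8 and RPL9P9 (-0.059) and RPS3A (-0.041). Leaving out a library turned RPL9P8 and RPL9P9 (-0.032 to 0.061), RPL36AP37 (-0.0040 to 0.17), RPL21 (-0.096 to 0.16), RPS3A (-0.028 to 0.081), RPS7 (-0.12 to 0.00052), RPL23A (-0.042 to 0.021) and RPL41 (-0.084 to 0.015), and the cause was not tested. The table holds no counts, so no error of counting is given, and shared words rest on an annotation newer than the one used for the values.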
